A study of Mus musculus with 14 samples.

Results

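The control cells of the RNA experiment were fluorescent cells sorted from the retinas of wild-type CD1 mice, and they make up 2 of the 14 samples of the series, chosen by their label. Eyes were electroporated at P0, the day of birth, with the empty vector pSilencer-CAG-Venus at 1 µg/µl. At postnatal day 21 the retinas were dissociated for 30 minutes, 10 to 15% of the cells were excluded as dead with propidium iodide, and GFP+ cells were sorted. Each replicate combined several sorts, for 30000 to 70000 cells, and the labels do not give the number of eyes or litters in a pool. The replicates are therefore separate pools of sorted cells, and the spread between them may be technical in part. The CAG promoter is active in most cell types, so the label marks cells that took up plasmid and their descendants, not 1 cell type.

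In a rod, light leads to the activation of transducin, transducin activates a phosphodiesterase, and the fall in cyclic GMP closes the cation channels of the outer segment. Recoverin, the kinase GRK1, arrestin and the RGS9 complex end the response. Plasmid delivered to the newborn mouse retina enters dividing progenitors, which at that age give rise to rods, bipolar cells, amacrine cells and Müller glia, while cones, horizontal cells and ganglion cells are mostly born before birth.

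The libraries held 5107174 and 4973402 counts for replicates 1 and 2, spread over 45895 RefSeq records. The order of values below is replicate 1, then replicate 2, and CPM are counts divided by the library's total and multiplied by 1000000. Of all records, 9525 and 9714 had at least 1 count, 1510 and 1523 reached 100 CPM, 107 and 106 reached 1000 CPM, and 9 reached 10000 CPM in each library. The counts were concentrated in few records: 130 and 131 records held the upper 50% of each library. CPM were not divided by transcript length, because no transcript lengths were used here, so an order of genes by CPM is an order of reads and not of RNA molecules.

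How many records a gene has in the tables sets what its count can show. Genes with a single record took 93.3 and 93.4% of the counts, and a count in either library was seen for 7670 of 17349 such genes. Genes with several records took 6.22 and 6.15%, and a count was seen for 3416 of 28400 of these records. Gapdh, a glycolytic enzyme of all cells with 2 records, had 0 and 1 counts, and Pkm, which makes pyruvate and has 11 records, had 0 in both. A gene with several records is therefore only said to be listed at its value. Counts of detected genes and medians by cell type are given for single-record genes unless stated otherwise. Shares of lists sum all records of each member, those of genes with several records included. As a measure of detection, at least 10 counts in both libraries were required, which 33.7% of all single-record genes met, against 12.4% of genes with several records and 43.1% of single-record protein-coding genes. The last share is the one to set beside each count of detected single-record list members below. Where a single-record gene has 0 counts, counting error alone allows up to 3 counts, which is 0.587 and 0.603 CPM. The spread between the libraries was wider than counting error, so a 0 can go with more counts. The single-record gene Rpl11, for example, had 0 and 40 counts.

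Rod genes led the libraries, and 9 of the 10 most abundant records belonged to the lists of rod, phototransduction, outer segment and visual cycle genes. Sag, rod arrestin, had 45191 and 44894 CPM. Gnat1, the alpha subunit of rod transducin, had 32642 and 31698 CPM. Both genes, with Pde6a and Rp1, are markers given for the sorted cells, and all of them stood among the 6 records with the most counts. Pde6a, the alpha subunit of the rod phosphodiesterase, had 15224 and 14445 CPM, and Rp1 (record NM_011283), a microtubule protein of the outer segment, had 13337 and 13290. The exception among the 10 was Malat1, a nuclear long noncoding RNA, with 45458 and 44988 CPM.

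The 10 most abundant records took 26.7% of the counts in each library, the first 30 took 36.1% in each and the first 100 took 47.3 and 47.2%. Of the 30 records, 29 were shared when each library was ranked on its own, and of the 100 records 94 were. Among the 30, 20 were on a photoreceptor list. The others included Map1b, a microtubule protein of neurons, with 6102 and 6055 CPM, and Slc6a6, a taurine transporter, with 4507 and 4396. The chaperones Hsp90aa1 and Hsp90b1 had 3696 and 3729, and 3407 and 3460. Agpat3, an enzyme of phospholipid synthesis, had 3399 and 3305 CPM, and Dync1h1, the dynein heavy chain, had 3306 and 3333. NR_046233, a record without a symbol, stood at 4446 and 4779 CPM. Glul, glutamine synthetase of Müller glia, was the single member of the Müller list among them.

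**Figure D1:**
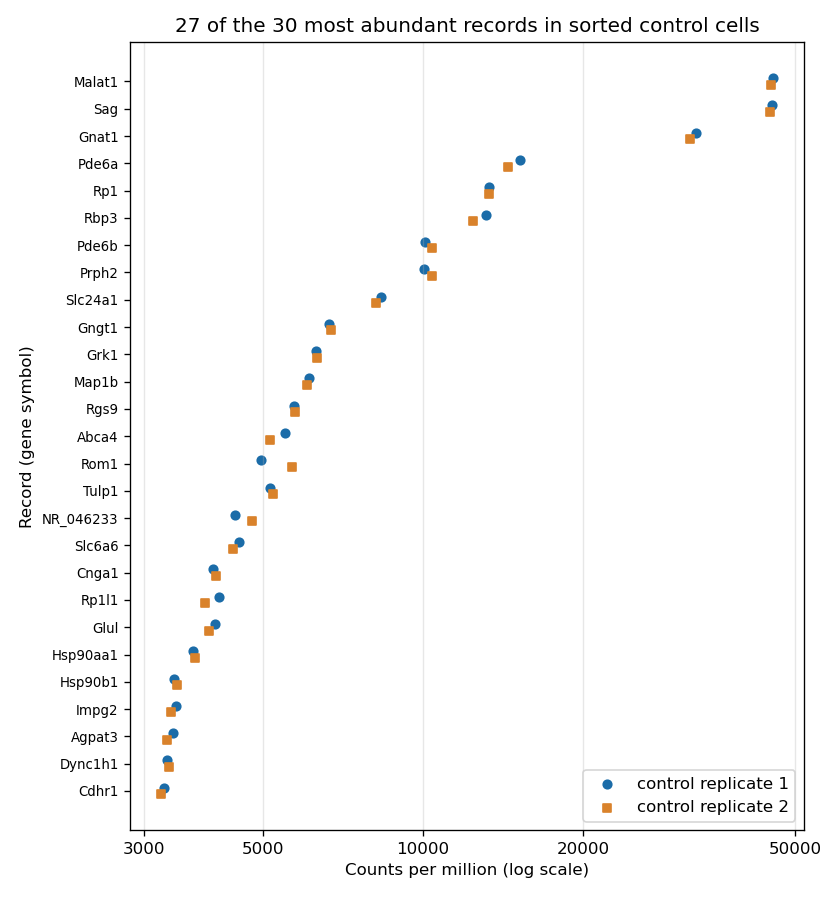
CPM (log axis) of 27 of the 30 most abundant records in control replicate 1 (circles) and replicate 2 (squares), ordered by mean. Sag stands at 45191 and 44894 CPM, and the circle and square of each record lie close together.

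The onset list of 10 genes took 15.2 and 15.3% of all counts. Besides Gnat1 and Pde6a, Pde6b, the beta subunit of the phosphodiesterase, had 10113 and 10396 CPM. Slc24a1, the sodium, calcium and potassium exchanger of the rod, had 8330 and 8177 CPM. Gngt1, the gamma subunit of transducin, had 6671 and 6733, and the channel subunit Cnga1 had 4042 and 4092. All 7 single-record members of this list had at least 10 counts in both libraries. Gnb1, the beta subunit of transducin, has 3 records and is listed at 0, and Pde6g, the inhibitory subunit of the phosphodiesterase, has 2 and is listed at 330 and 352 CPM.

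The 11 genes of shutoff and recovery took 6.79 and 6.82% of the counts, of which Sag was 66.6 and 65.8%. Grk1, a kinase that starts the turn-off, had 6305 and 6332 CPM, and Rgs9, which speeds the turn-off of transducin and has 2 records, was listed at 5728 and 5762. Recoverin (Rcvrn) had 2747 and 3007 CPM, and Rgs9bp, the membrane anchor of RGS9, had 2247 and 2556. The guanylate cyclases Gucy2e and Gucy2f, which restore cyclic GMP, had 2172 and 2188, and 1412 and 1275 CPM. Their activators Guca1b and Guca1a had 1145 and 1234, and 897 and 965 CPM. All 8 single-record members passed the detection limit.

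Genes of outer segment structure, cilium and matrix took 6.68 and 6.75% of the counts over the 27 members that were matched. The disc rim proteins Prph2 and Rom1 had 10033 and 10396, and 4960 and 5670 CPM. Tulp1, a trafficking protein of photoreceptors, had 5173 and 5224, Rp1l1 had 4138 and 3900, and Impg2, a proteoglycan between photoreceptors, had 3440 and 3372. The disc cadherin Cdhr1 had 3266 and 3224 CPM, and Cep290, a protein of the ciliary region, had 1298 and 1305. All 17 single-record members were detected, the lowest being Iqcb1 at 34.3 and 46.8 CPM, and so were 3 of 10 with several records. Prom1, Tmem67 and Spata7, with 8, 3 and 4 records, are listed at 0.

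In the visual cycle, which regenerates the retinal chromophore, genes of photoreceptors were abundant and 2 enzymes of the pigment epithelium had 0 counts. The list took 1.91 and 1.80% of the counts. Rbp3, the retinoid carrier between photoreceptors and pigment epithelium, had 13131 and 12413 CPM, and Abca4, the retinoid transporter of discs, had 5505 and 5173. Rdh8, the retinol dehydrogenase of outer segments, had 328 and 332 CPM. Rpe65 and Lrat, the isomerase and the esterifying enzyme of the pigment epithelium, are single-record genes and had 0 counts in both libraries.

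Among transcription factors of photoreceptors, Nr2e3 and Neurod1 had the most counts. Nr2e3, which represses cone genes in rods, had 1024 and 1012 CPM, and Neurod1, needed for photoreceptor survival, had 535 and 486. The other single-record members were Nr1d1 (87.9 and 75.2 CPM), Bhlhe40 (59.7 and 31.8), Prdm1 (36.8 and 26.5) and Onecut1 (4.90 and 7.84). Crx, with 2 records, is listed at 77 and 27 counts, Otx2, with 6, at 0 and 7, and Nrl, with 4, at 0. Of the 14 factors with several records 6 reached 10 counts in both libraries, Crx among them. Because Crx, Otx2 and Nrl each have several records, the tables do not give their levels.

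The promoters of the most abundant genes are shown because OTX2, the homeobox factor whose binding the series also profiled, and its photoreceptor relative CRX recognise a short core sequence. That core was searched as TAATCC and as its reverse complement GGATTA, which is both strands, in RefSeq promoter windows of build GRCm38.p6 that run from 250 bases before to 50 bases after a start site. Of the 29 named genes among the 30 most abundant records, 20 had a window, and 6 of these 20 (30.0%) held the core. They were Sag, Rbp3, Gngt1, Abca4, Cnga1 and Map1b. In the 4 printed here the match begins 87, 69, 44 and 58 bases before the start site of Sag, Rbp3, Gngt1 and Abca4. In the others, the match begins 228 bases before the start site of Cnga1 and after the start site of Map1b. The 250 bases before each start site are given 5′ to 3′ on the strand of the gene, the plus strand in all 4, with the match in capitals. The Sag sequence is chr1:87803430-87803679, Rbp3 is chr14:33953753-33954002, Gngt1 is chr6:3993758-3994007 and Abca4 is chr3:122044210-122044459.
Sag: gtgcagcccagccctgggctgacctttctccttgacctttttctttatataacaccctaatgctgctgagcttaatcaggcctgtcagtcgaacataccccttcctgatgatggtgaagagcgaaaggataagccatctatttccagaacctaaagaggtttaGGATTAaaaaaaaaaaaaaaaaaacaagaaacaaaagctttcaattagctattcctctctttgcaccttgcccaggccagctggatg
Rbp3: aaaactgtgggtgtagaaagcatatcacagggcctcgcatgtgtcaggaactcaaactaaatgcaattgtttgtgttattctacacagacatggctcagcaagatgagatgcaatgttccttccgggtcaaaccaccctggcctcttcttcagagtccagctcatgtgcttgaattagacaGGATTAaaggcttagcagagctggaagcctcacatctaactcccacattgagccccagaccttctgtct
Gngt1: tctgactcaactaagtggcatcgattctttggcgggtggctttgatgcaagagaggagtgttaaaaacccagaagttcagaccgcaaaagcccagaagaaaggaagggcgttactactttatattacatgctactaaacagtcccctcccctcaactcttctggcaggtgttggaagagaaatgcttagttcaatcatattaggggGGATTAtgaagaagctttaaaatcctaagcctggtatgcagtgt
Abca4: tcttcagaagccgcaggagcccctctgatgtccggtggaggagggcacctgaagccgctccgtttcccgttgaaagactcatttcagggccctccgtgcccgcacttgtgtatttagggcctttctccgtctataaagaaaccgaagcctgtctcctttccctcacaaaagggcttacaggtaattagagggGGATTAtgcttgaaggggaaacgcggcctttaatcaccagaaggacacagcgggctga

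Over all 32851 promoter windows the core was found in 7.06%. Among single-record genes it was found in 7.96% of 6505 windows of genes with 0 counts, in 5.39% below 10 CPM, in 5.69% from 10 to 100 CPM and in 5.68% from 100 to 1000 CPM. In the 76 windows of genes at 1000 CPM or more it was found in 17, or 22.4%. Of these, windows of genes on a photoreceptor list held it in 8 of 19 cases (42.1%) and the remaining windows in 9 of 57 (15.8%). The median share of G and C was 51.7% in the former and 64.7% in the latter, and 47.3% in windows of genes with 0 counts, so base composition differed between these groups and its part was not tested. The TATAAA sequence, searched with its reverse complement TTTATA, was found in 13.6% of all windows. By level of the gene it was found in 22.8% at 0 counts, 9.89% below 10 CPM, 6.56% from 10 to 100 CPM, 6.15% from 100 to 1000 CPM and 15.8% at 1000 CPM or more, so it too was more frequent in the top class than in the one below. A match is a description of these letters and not of a bound site.

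**Figure D2:**
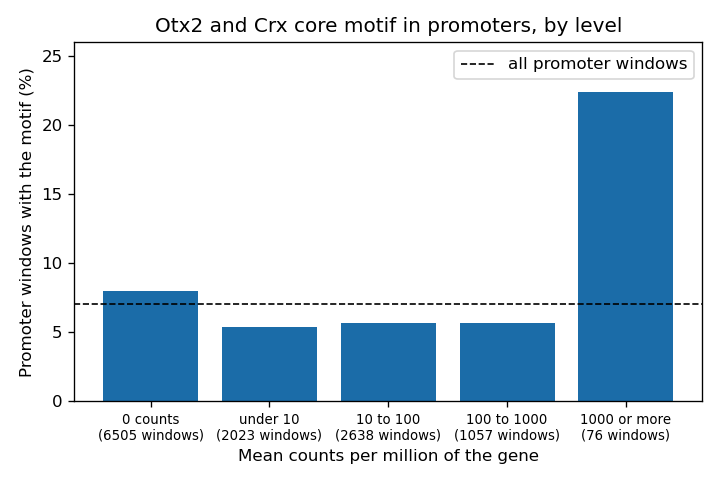
Percent of promoter windows with the Otx2 and Crx core (vertical axis) by mean CPM of the gene (horizontal axis, single-record genes, number of windows below each bar), with a dashed line at the 7.06% of all windows. The bar at 1000 CPM or more stands at 22.4%, and the other bars lie between 5.39 and 7.96%.

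The rod list as a whole took 25.0 and 25.3% of all counts (95% Wilson intervals 25.0 to 25.1 and 25.3 to 25.3%), the largest share of the 14 cell type lists. All 19 of its single-record genes were detected, and the lowest was Cabp4, a calcium-binding protein of the rod synapse, at 365 and 468 CPM. Their median was 4960 and 5670 CPM. Over the 5844 single-record genes of the tables with at least 10 counts in both libraries the median was 37.8 and 38.8 CPM. With the phototransduction, outer segment and visual cycle lists added, 69 matched genes took 30.2 and 30.3%. These are shares of counts and not of cells, and in pooled cells a change in the number of a cell type and in its RNA per cell cannot be told apart. The rod list keeps Grk1, which is also on the cone list, and its other members were not checked for expression in cones.

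**Figure D3:**
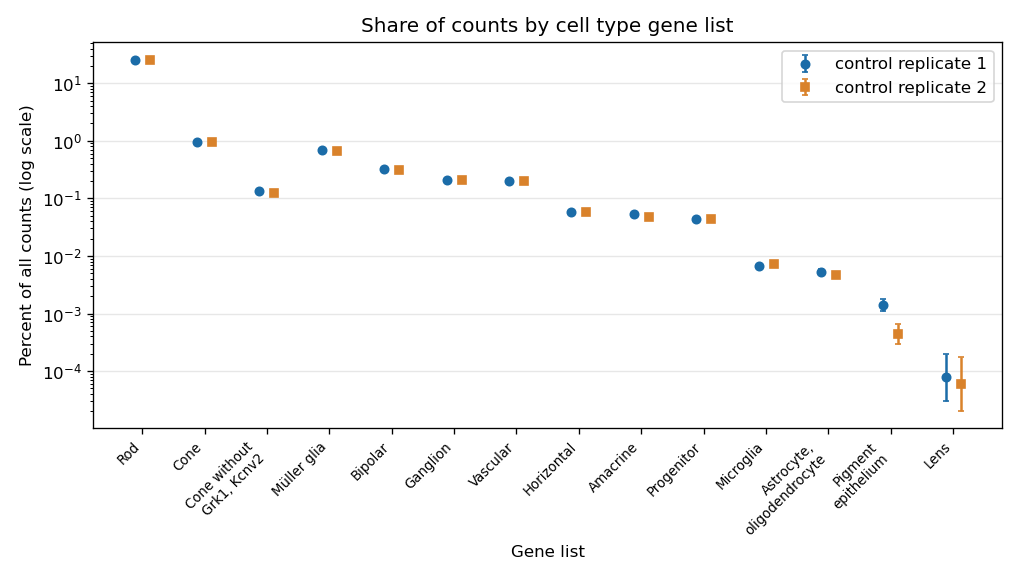
Percent of all counts (log axis) taken by each cell type list in control replicate 1 (circles) and replicate 2 (squares), with 95% Wilson intervals for counting error, most of them smaller than the symbols. The rod list lies at 25.0 and 25.3%, and no other list reaches 1%; red blood cell genes had 0 counts and are not drawn.

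Cone genes were present at a low level once genes that rods share were set aside. The list of 19 took 0.951 and 0.943% of the counts, but Grk1, which rods use too, was 66.3 and 67.1% of that. Kcnv2, a potassium channel subunit of both rods and cones, had 1879 and 1847 CPM. Without these the list held 0.132 and 0.126% (Wilson intervals 0.129 to 0.136 and 0.122 to 0.129%), a setting chosen after the data were seen. The remaining members, Gnb3 with 1195 and 1191 counts among them, were not checked for expression in cell types other than rods. Opn1sw, the short-wavelength opsin, had 542 and 526 CPM, and Opn1mw, the middle-wavelength opsin, had 55.6 and 26.3. The cone transducin subunits Gnat2 and Gnb3 had 240 and 179, and 234 and 239 CPM, and cone arrestin, Arr3, had 87.7 and 94.7. Of the 11 single-record genes 10 were detected, and Clca3a2 had 0 counts.

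Rod and cone members of the same protein pair were set side by side, with values not per length. Of the reads on Gnat1 and Gnat2, Gnat2 took 0.729 and 0.561% (Wilson intervals 0.689 to 0.771 and 0.526 to 0.599%). Of the reads on Sag and Arr3, Arr3 took 0.194 and 0.211%. For Cngb1 and Cngb3, subunits of the rod and cone channels, Cngb3 took 1.42 and 0.965%, with Cngb1 having 2 records. For the inhibitory phosphodiesterase subunits Pde6g and Pde6h the cone share was 14.6 and 8.56%, but Pde6g is among the genes with several records. For the beta subunits of transducin, Gnb3 took all reads of the pair (1195 and 1191 counts), since Gnb1, with 3 records, is listed at 0. The cone genes Gngt2, Cnga3, Slc24a2 and Pde6c have several records each and are listed at 0 to 17 counts. Arr3 gave shares whose Wilson intervals overlapped between the libraries. Those of Gnat2, Cngb3 and Pde6h were higher in replicate 1, with Wilson intervals that did not overlap between the libraries. Wilson intervals cover counting error only, so this does not set the differences apart from the usual spread between the libraries. At a mean of 100 to 1000 counts the median log2 difference was 0.295, against 0.0851 from counting error alone.

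All single-record genes on the list of bipolar cells, the neurons that carry the signal of photoreceptors onward, were detected. The list took 0.326 and 0.307% of the counts. It was chosen with earlier results of these data known, so its detection is a description and not a test. The detection limit was passed by 21 of 21 single-record genes, against 33.7% of all such genes and 43.1% of protein-coding ones. The median of the 21 genes was 46.2 and 45.6 CPM. Prkca, the kinase that marks rod bipolar cells, had 698 and 663 CPM, and Gpr179, Cabp5 and Car8 had 435 and 399, 304 and 346, and 231 and 243. The glutamate receptor of ON bipolar cells, Grm6, had 110 and 89.9 CPM, and its partners Lrit3 and Nyx had 218 and 166, and 31.9 and 52.1. Trpm1, the channel that Grm6 controls, has 2 records and is listed at 543 and 449 CPM. Vsx1, a factor of cone bipolar cells, had 46.2 and 42.8 CPM, while Pcp2, with 18 records, is listed at 0.

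Among the lists of cell types that progenitors of the newborn retina produce, the amacrine list took the smallest share, at 0.0529 and 0.0480% of the counts. These lists differ in length and in how many genes have several records, 15 of 27 for amacrine and 9 of 30 for bipolar cells. Gjd2, a gap junction protein that other retinal cells also express, had 152 and 98.3 CPM. Gad2, which makes GABA, had 34.7 and 32.6 CPM, and Slc32a1, the vesicular transporter of GABA and glycine, had 24.9 and 19.9. C1ql2 and Ppp1r17 had 17.4 and 27.9, and 11.4 and 26.9 CPM. Of 12 single-record genes 9 were detected. Those below the limit were Th, the dopamine-making enzyme, with 0 and 8 counts, Chat, of cholinergic amacrine cells, with 16 and 7, and Neurod6, with 17 and 0. The 9 genes listed at 0, Pax6 and Calb2 among them, all have several records.

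Müller glia, the radial glia of the retina, stood next to the rods in share once Grk1 and Kcnv2 were taken from the cone list. Müller genes took 0.693 and 0.676% of the counts, of which Glul was 58.7 and 58.6%, and without Glul 0.286 and 0.280%. Glul had 4069 and 3965 CPM, the transporters Abca8a and Slc1a3 (glutamate) had 567 and 588, and 536 and 496, and Clu, clusterin, had 505 and 506. Gpr37 had 369 and 326 CPM, the filament protein Vim had 295 and 266, and the potassium channel Kcnj10 had 174 and 182. The factors Sox2 and Sox9 had 369 and 418, and 102 and 97 counts. All 15 single-record genes were detected, with a median of 139 and 135 CPM. Among these Id3 differed most between the libraries, with 103 and 15 counts. Rlbp1, Apoe and Aqp4, well-known Müller genes with 3, 4 and 9 records, are listed at 60 and 36, 5 and 0, and 0 and 0 counts.

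**Figure D4:**
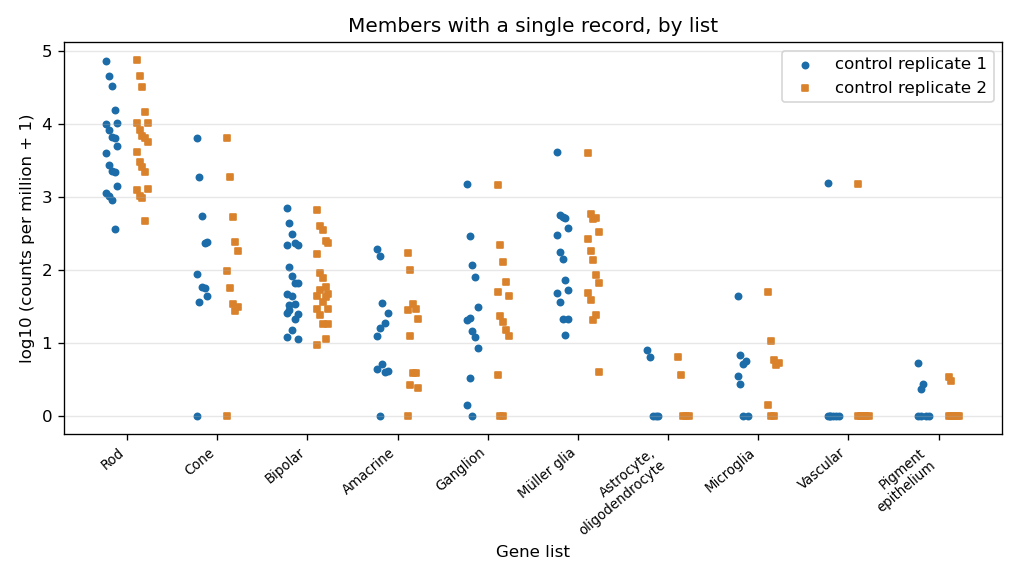
Level of each single-record member by cell type list, as log10 of CPM plus 1, in control replicate 1 (circles) and replicate 2 (squares). Rod members lie from 365 CPM upward and all bipolar and Müller members lie above 0, while 6 of 7 vascular members and 3 of 5 astrocyte and oligodendrocyte members lie at 0.

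Other glia and cells outside the neural retina left few counts. Astrocyte and oligodendrocyte genes took 0.00535 and 0.00462% of the counts, and the single-record genes Mog, Olig1 and Olig2 had 0. Gfap, a filament of astrocytes and reactive Müller glia with 2 records, is listed at 126 and 142 counts. Microglial genes took 0.00656 and 0.00718%, with Csf1r at 30 and 48, Cx3cr1 at 21 and 24 and Tyrobp at 0. Vascular genes took 0.202 and 0.197%, of which Vtn, which rods also express, was 76.5 and 76.3% and Kdr, with 2 records, was listed at 409 and 397 CPM. The other 6 single-record vascular genes, among them Cldn5, Cdh5 and Vwf of endothelial cells, had 0 counts. Pigment epithelium genes had 72 and 22 counts in all, lens genes 4 and 3, and red blood cell genes 0, although the alpha and beta globin genes have near-identical copies, so that their 0 is uncertain.

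The early-born neurons gave mixed values. Of the ganglion cell list, 0.209 and 0.205% of the counts, the neurofilament chain Nefl was 71.8% in each library, with 1501 and 1472 CPM, and neurofilaments are shared by many neurons. The defining factors Pou4f1 and Pou4f2 had 106 and 111, and 2 and 13 counts, and Thy1 had 68 and 92. Horizontal cell genes took 0.0570 and 0.0587%, of which the widely expressed Ndrg1 was 91.9 and 89.8%, while Onecut1 had 25 and 39 counts and Lhx1 had 1 and 16. Genes of progenitors took 0.0443 and 0.0434%. Of 13 single-record members 6 (46.2%) were detected, near the 43.1% of all single-record protein-coding genes. Among the 6 were the homeobox factors Rax, at 177 and 175 CPM, and Six6, at 82.6 and 64.7 CPM. The receptor Notch1 had 62.9 CPM in each library, and Sox2, also detected, is on the Müller list as well. Sox11 had 52 and 21 counts, while the proliferation gene Mki67, a single-record gene, had 0 counts and Top2a had 0 and 7.

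Photoreceptor synapse genes took 1.31 and 1.34% of the counts. All 10 single-record members were detected, and 11 of 18 with several records. Cplx4, a complexin of ribbon synapses, had 2384 and 2507 CPM, Slc17a7, which loads glutamate into vesicles, had 2357 and 2353, and Syp, synaptophysin, had 2287 and 2393. Lrit1 had 1234 and 1344 CPM, and Cacna1f, the calcium channel of the photoreceptor terminal, had 384 and 392. All 8 single-record glycolysis genes and all 21 of oxidative phosphorylation were detected, against 43.1% of all single-record protein-coding genes. Of the members with several records, 5 of 15 and 2 of 5 were detected. Hk2, a hexokinase, had 1772 and 1819 CPM, and the lactate transporter Slc16a1 had 794 and 862, in a glycolysis list of 0.491 and 0.488%. Nuclear genes of oxidative phosphorylation took 0.774 and 0.782%, led by the ATP synthase subunits Atp5b (3315 and 3122 CPM) and Atp5a1 (1492 and 1498). The list of ion pumps and creatine kinases took 0.276 and 0.254%, with 4 of 5 single-record genes detected, the muscle creatine kinase Ckm at 0 counts and the sodium pump subunit Atp1b2 at 1003 and 867 CPM. Membrane lipid genes took 0.502 and 0.489%, with Elovl4, which makes very long fatty acids, at 1300 and 1343.

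Cytosolic ribosomal protein genes took 0.456 and 0.460% of the counts and differed widely among themselves. Rplp1 and Rpl8 had 753 and 815, and 748 and 696 CPM, while Rps18 had 0 and 5 counts and Rpl10 had 14 and 0, although all are single-record genes and ribosomes need each of them. Ribosomal protein genes have many near-identical pseudogene copies, so the counts of single members are uncertain. Rpl14-ps1 and Rps6-ps4, records of such pseudogenes, had 366 and 342, and 170 and 175 CPM.

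Among the noncoding records with a symbol, Malat1 was followed by Rpph1, the RNA of ribonuclease P, with 724 and 465 CPM, and Mir124a-1hg, a host transcript of the neuronal miRNA miR-124, with 633 and 520. Long noncoding records took 5.33 and 5.26% of all counts in total. Mir124-2hg had 164 and 145 CPM, and the hairpin record Mir124a-2 had 67 and 66 counts. The hairpins of the sensory cluster Mir183, Mir96 and Mir182 had 13 and 4, 10 and 17, and 8 and 3 counts. These records count pieces of longer RNA and not mature miRNAs. Peg13 had 425 and 417 CPM and Kcnq1ot1 had 170 and 126, both imprinted transcripts. The Y-linked genes Ddx3y and Kdm5d had 141 and 161, and 56.8 and 69.6 CPM, and Xist, with 2 records, is listed at 0.

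Genes of the BCOR complex and Polycomb, the repressors that the series studies, took 0.160 and 0.163% of the counts. All 15 single-record members were detected, at a median of 65.6 and 80.0 CPM, and 2 of 11 with several records were. Usp7, a deubiquitinase, had 396 and 409 CPM, the histone-binding Rbbp4 had 292 and 194, Cbx6 had 188 and 180 and Bmi1 had 159 and 156. Rybp and Pcgf1, subunits of the variant complex, had 23.7 and 22.5, and 11.4 and 16.7 CPM. Bcor itself, with 6 records, is listed at 20 and 8 counts. Genes of inherited retinal disease took 17.6 and 17.9%, and 25 of 25 single-record members and 6 of 17 with several records were detected. Among the former were the splicing factors Snrnp200 (1235 and 1124 CPM) and Prpf8 (1009 and 1081), which all cells express, and Crb1 of the outer limiting membrane (673 and 576).

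Dissociation can induce immediate early and stress genes, which were also counted. Immediate early genes took 0.0622 and 0.0645% of the counts, with Jun at 125 and 134 CPM, Fos at 57.4 and 87.5 and Egr1 at 63.4 and 69.8. Stress and gliosis genes took 0.0255 and 0.0247%, led by the heat shock genes Hspa1b and Hspa1a at 89.5 and 87.5, and 41.9 and 57.7 CPM, a near-identical pair.

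The spread between the libraries depended strongly on the count behind a value. With a mean of 10000 counts or more, 47 records differed by a median of 1.03-fold. From 1000 to 10000 counts the median was 1.08-fold over 730 records, from 100 to 1000 it was 1.23-fold over 3474, and from 10 to 100 it was 1.75-fold over the records with a count in both libraries. Of the 3940 records with a mean of 10 to 100 counts, 490 (12.4%) had 0 counts in 1 library. The median log2 difference calculated from counting error alone was 0.256 in that class, where 0.80 was measured, and 0.0335 from 1000 to 10000 counts, where 0.115 was measured. All 19 single-record rod genes had more than 1000 counts in each library, while all 12 single-record amacrine genes had fewer.

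Above 100 CPM, 1 of 1512 records differed by more than 2-fold between the libraries. This was Ubb-ps, a ubiquitin pseudogene, with 628 and 130 CPM, a log2 ratio of replicate 2 to replicate 1 of -2.27. The next lower in replicate 2 were Zfp263 (-0.97), Appbp2 (-0.76), Rps6kc1 (-0.75) and Tchp (-0.74). The highest in replicate 2 were Anp32b (0.84), Oat (0.82), Ndufb7 (0.81), Hmgn5 (0.80) and Cfap298 (0.79). The 42 of these records on a photoreceptor list had a median log2 ratio of 0.01 and a median size of 0.04, against 0.14 for all 1512, and they also hold more counts.

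**Figure D5:**
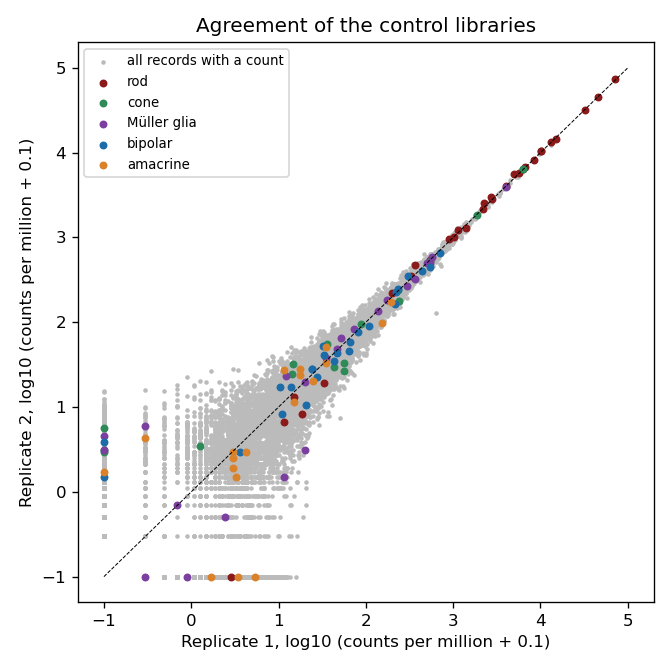
log10 of CPM plus 0.1 of every record with a count, replicate 1 against replicate 2, with members of 5 cell type lists coloured and the line of equality dashed. Single-record rod genes lie near the line from 365 CPM upward, a few rod genes with several records lie low, and amacrine genes scatter in the lower part where many records have a count in 1 library alone.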

How the data were processed

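The series holds 14 samples of mouse retina, of which the 2 control RNA libraries were analysed here and the other 12 were not used. The values are whole-number counts per RefSeq record that the authors made with HTSeq and deposited, per the labels. Per the labels' protocols, rRNA was depleted from 3.0 to 5.1 ng of input, random primers started a strand-keeping cDNA synthesis, and 15 cycles of PCR followed. Trimmomatic, TopHat and DESeq2 and the builds mm10 and mm9 are named in the submitters' processing notes. The strand setting, tool versions and handling of overlapping records are not given in the sources used here, so overlapping and antisense genes are not told apart.

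Of 45895 records, 45749 were matched to a symbol through a RefSeq gene table of GRCm38.p6, and records without one took 0.446 and 0.479% of the counts. Mitochondrially encoded records numbered 0. CPM use the total of all records. Shares of lists sum all records of each member. Python 3.11.15, pandas 2.3.3, edgeR 4.0.16 and DESeq2 1.42.0 were used. The control columns were not identical, with a chi-square of 12.0 per degree of freedom over 11089 records, a Pearson r of log2(CPM + 0.5) of 0.871 (a description across records) and an edgeR common biological coefficient of variation of 0.288. No test between groups was made. Intervals are 95% Wilson intervals and cover counting error only, since PCR reads are not independent molecules. List sums and the edgeR estimate were tested on simulated data.

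Members and the 31 gene lists were chosen with earlier results of these data known. Named were the 30 records with the highest mean CPM, the members highest by CPM or at 0 in each list, rod and cone pairs, and the 5 records per direction that differed most between libraries above 100 CPM; further members were singled out after their values were seen. Some genes are not reported here. Levels per coding length were planned but could not be computed from the tables used. Alternatives left out libraries, members, records and low counts, and changed totals and scaling.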

Additional observations from a re-analysis of the deposited data

How the results depend on the processing

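The order of the shares of counts, with rods first, then Müller, bipolar and amacrine genes, was kept in each setting run on all of them, while the cone share fell below the Müller share with members on a single list. Without its most abundant member a list took 0.315% (cone), 0.249% (bipolar) and 0.283% (Müller), as means of the libraries, against 0.947, 0.317 and 0.684%; this setting is not reported for rods and amacrine cells, whose shares were 25.2 and 0.0505%. With single-record genes alone the rod, bipolar and amacrine shares were 22.9, 0.267 and 0.0431%. With members on a single cell type list they were 24.5% for rods and 0.315% for cones. In a setting chosen after the data were seen, the cone share was 0.129% without Grk1 and Kcnv2. Leaving out a library returns the value of the other library, so this setting adds no check. It gave 25.0 to 25.3% (rod), 0.943 to 0.951% (cone), 0.307 to 0.326% (bipolar), 0.0480 to 0.0529% (amacrine) and 0.676 to 0.693% (Müller). The 10 most abundant records took 26.8% when records without a symbol left the total and 26.7% when records were summed per gene. The correlation between libraries was 0.949 over records with at least 10 counts in each and 0.966 with at least 100. Records at 100 CPM numbered 1513 with TMM and with DESeq2 size factors. No paired analysis was possible because a single group was described. The planned level per coding kilobase was not run. From 10 to 100 counts the median difference between libraries was 1.75-fold, against 1.03-fold at 10000 counts or more.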

Other observations

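Below the 30 most abundant records, further abundant genes lay outside the gene lists. Calr, a calcium-binding chaperone of the endoplasmic reticulum, had 2755 and 2592 CPM in replicates 1 and 2. Eef2, the elongation factor of translation, had 2526 and 2562 CPM, and Syne2, which anchors the nucleus to the cytoskeleton, had 2519 and 2299. Ddb1, a subunit of a ubiquitin ligase, had 2479 and 2316 CPM, Cpe, which processes neuropeptides, had 2271 and 2439, and Ncl, nucleolin, had 2252 and 2357. Further down, Top2b, a topoisomerase, had 1990 and 1970 CPM. Top2a, a related enzyme of dividing cells, had 0 and 7 counts. These genes were taken in order of mean CPM, except Top2b and Top2a, which were singled out after their values were seen.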
